A study of Mus musculus with 6 samples.

Results

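The genes described here are 10 genes of the NRF2 and glutathione defence system, measured in fetal mouse livers meant to lack HNF4 alpha in hepatocytes and in control livers. They are the regulators Nfe2l2 and Keap1, the NRF2 target Nqo1, the glutathione synthesis genes Gclc, Gclm and Gss, the glutathione reductase gene Gsr, and the peroxide and thiol enzymes Gpx1, Srxn1 and Txnrd1. All probe sets that the platform annotation gives to exactly 1 of these symbols were taken, which made 21 of the 45037 probe sets tested and 10 of 18193 genes. HNF4 alpha is a nuclear receptor of the hepatocyte. The 3 control livers were HNF4LoxP/+ with the AlfpCre transgene, and the 3 null livers were HNF4LoxP/LoxP with the same transgene, all at E18.5, so that Cre was present in both groups. AlfpCre carries albumin and alpha-fetoprotein regulatory elements that direct Cre to the hepatocyte lineage, and a whole fetal liver also holds blood-forming, endothelial, mesenchymal and other cells. In such bulk RNA, fewer cells of a type and less RNA per cell cannot be told apart.

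NRF2, the protein of Nfe2l2, is the transcription factor that turns on genes of antioxidant and detoxifying enzymes. In unstressed cells KEAP1 holds it and hands it to a CUL3 ubiquitin ligase for degradation, and electrophiles or oxidants that modify cysteines of KEAP1 let NRF2 build up, pair with a small MAF protein and bind the antioxidant response element. Since this control acts on the protein, the transcripts of its targets, and not Nfe2l2 RNA itself, are the usual readout of NRF2 activity. Glutathione is made from glutamate, cysteine and glycine, first by glutamate-cysteine ligase (catalytic subunit GCLC, modifier subunit GCLM) and then by glutathione synthetase (GSS). GPX1 spends it on peroxides and GSR reduces it again. The liver is the main source of the glutathione found in plasma.

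The response element has a short core that can be shown in the promoters of these genes. The core TGACNNNGC was searched on both strands in RefSeq promoter windows of build GRCm38.p6, which run from 250 bases before to 50 after a gene start. Of the 10 genes 8 had such a window, namely all but Gclc and Gsr, with 10 windows in all because Txnrd1 has 3. The core occurred in a window of 4 of the 8 genes and of 14.0% of all 27025 genes, and in 4 of the 10 windows and 12.4% of all 32851. The matches are shown 5′ to 3′ on the strand of the gene, with the core in capitals, as the letters to which the NRF2 response element is matched; in the last 3 it lies on the opposite strand and reads GCNNNGTCA.
Nfe2l2, chr2:75704885-75704913, minus strand: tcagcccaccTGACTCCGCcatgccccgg
Gclm, chr3:122245413-122245441, plus strand: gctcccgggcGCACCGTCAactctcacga
Txnrd1, chr10:82859104-82859132, plus strand: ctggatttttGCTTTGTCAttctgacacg
Srxn1, chr2:152105542-152105570, plus strand: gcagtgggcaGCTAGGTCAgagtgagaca
The Nfe2l2 match began 240 bases before the start in the table (position -240), that of Gclm at -134 and that of Txnrd1 at -92, while that of Srxn1 began at base 29 of the transcript. A match of this kind is a description of letters and not of a bound site. The 9-letter HNF4 sequence CAAAGTCCA was in none of these windows and in 0.475% of all windows, and the direct repeat of AGGTCA with 1 base between its copies was in none of them and in 0.0396% of all.

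The arrays gave 1 intensity per probe set on a linear scale, with array medians of 91.8 to 99.6 and a top of 12298 to 12608. A ± gives the SD over 3 arrays. Each log2 change is the null mean minus the control mean of log2(intensity + 32), with negative intensities taken as 0, and so understates changes of dim genes. Adjusted p values are from limma with Benjamini-Hochberg adjustment over all probe sets tested, and a gene counts by its brightest probe set. Arrays are named by group and title number (Control_8, Control_1192, Control_1193, Null_61, Null_1191, Null_1195). Control_8 and Null_61 stand apart from the other 4 arrays: the 5' probe set of 18S ribosomal RNA read 42.1 and 33.5 there and 449 to 616 in the others. No label calls these runs a batch. Each run of numbers holds both groups, so values within the runs are given where they matter. Embryo sex, read from Xist and Y-linked probe sets, was female in Control_8, Null_1191 and Null_1195 and male in the other arrays. Within each run the controls and nulls thus differ in sex, so group and sex cannot be told apart there. The brightest probe set of Hnf4a, the targeted gene, read 2767 ± 142 in controls and 2039 ± 649 in nulls (log2 change -0.48, adjusted p = 0.194 by limma), and 2 of its 4 probe sets were called lower. No source used here places them relative to the deleted part. All 6 measured hepatocyte markers were well above the array medians in controls, among them Alb at 10532 ± 270.

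No gene of the 10 passed the test in either direction, and neither did any of the 21 probe sets, beside 1.46% of all probe sets called higher and 5.55% lower. Over all genes, 1.56% were called higher and 7.85% lower (283 and 1428 genes; 617 and 1196 with quantile normalization), so fewer than 1 call among 10 genes would match the background and the count of 0 is near it. At an unadjusted p under 0.05 limma gave 1 of the 10 genes, Gss, beside 15.2% of all genes lower and 9.1% higher, and 6 of the 21 probe sets. All 6 were lower in nulls. Over all probe sets that threshold held 11.6% lower and 9.56% higher. The median log2 change of the 10 genes was -0.01, beside 0.01 over all genes, with 4 genes on the higher and 6 on the lower side. For a probe set of these genes to be called, a log2 change of between 0.34 and 1.27 would have been needed, depending on its spread.

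**Figure D1:**
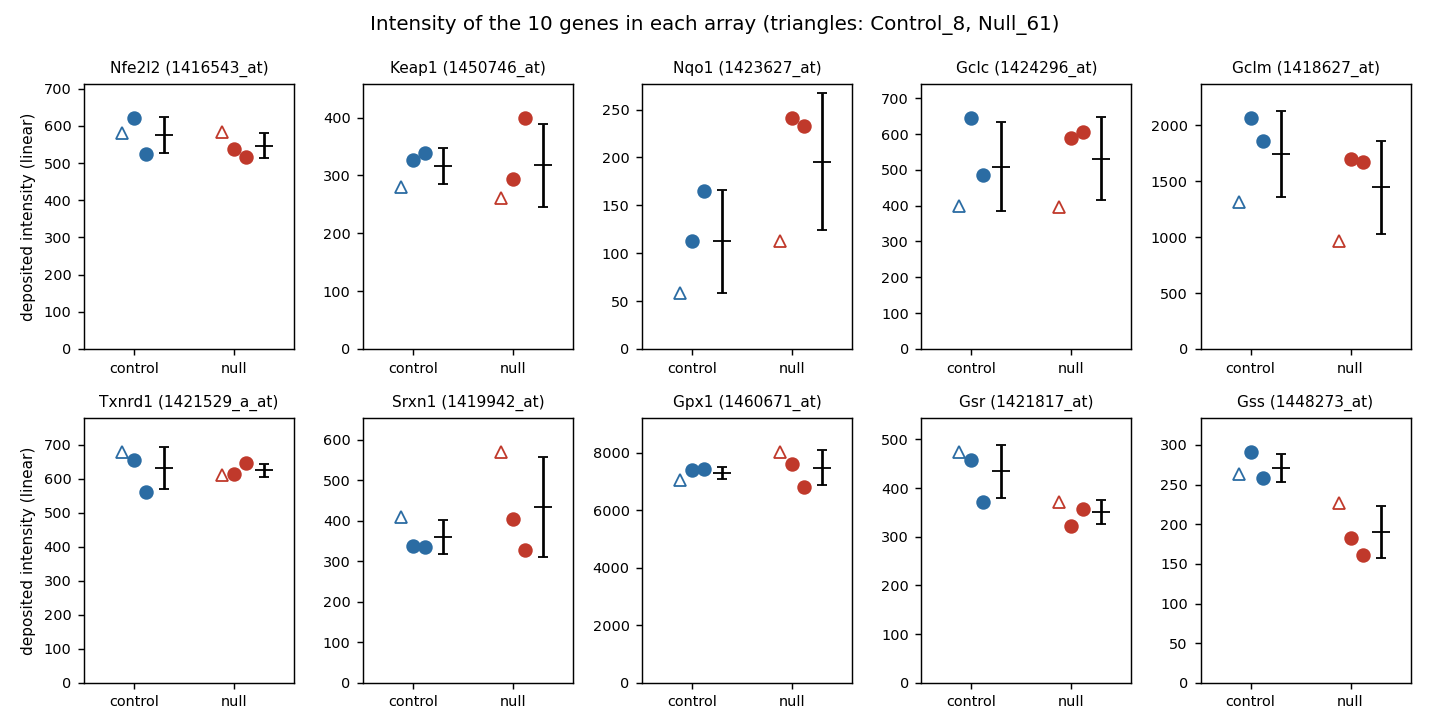
Deposited intensity (linear scale from 0) of the brightest probe set of each of the 10 genes, 1 symbol per array, with controls in blue and nulls in red; open triangles are Control_8 and Null_61, and black bars are the mean and SD of 3 arrays. The groups overlap in 8 genes, and all nulls lie below all controls for Gsr and Gss.

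The 2 regulators had changes close to 0 in their brightest probe sets. Nfe2l2 (1416543_at) read 582, 620 and 524 in Control_8, Control_1192 and Control_1193, and 583, 539 and 516 in Null_61, Null_1191 and Null_1195. The groups overlapped, with a log2 change of -0.07 and a 95% interval from -0.33 to 0.19 (adjusted p = 0.774 by limma). A dim second Nfe2l2 probe set, 1457117_at, read 45.9 ± 4.28 in controls and 28.6 ± 8.32 in nulls, below the array medians in both groups, with all 3 nulls under all 3 controls and an adjusted p of 0.196. Keap1 (1450746_at), for the protein that holds NRF2 in the cytoplasm, read 281, 327 and 339 in the controls, against 261, 294 and 398 in the nulls. The controls lay inside the range of the nulls, and the log2 change was -0.01 (interval -0.38 to 0.36, adjusted p = 0.987 by limma). The second Keap1 probe set, 1450747_at, read 123 ± 10.6 and 117 ± 45.8.

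Nqo1 had the largest positive change of the 10 genes, and whether it passed the test depended on how the 2 runs of arrays were handled. It encodes a quinone reductase and is the classical NRF2 target. Its probe set 1423627_at read 58.4 in Control_8, 113 in Control_1192 and 165 in Control_1193, and 113 in Null_61, 241 in Null_1191 and 233 in Null_1195. Null_61 lay within the control range while the other 2 nulls lay above it. The log2 change was 0.67 with a standard error of 0.32 and did not pass the test (interval -0.05 to 1.40, adjusted p = 0.271 by limma). It was 0.37 without Control_8 (adjusted p = 0.571 by limma) and 0.97 without Null_61 (adjusted p = 0.0639). Control_8 and Null_61 were each the lowest of their group, and within the runs the difference was nearly equal: 0.68 between Null_61 and Control_8, and 0.67 between the means of the other 2 nulls and 2 controls. With the run as a block the log2 change of 0.67 had a standard error of 0.13 and was called (adjusted p = 0.00944 by limma), as it was in the 4 other arrays alone (adjusted p = 0.0443). With that block 4.11% of all genes were called higher. In those 4 arrays both controls were male and both nulls female, so group and embryo sex cannot be told apart there. In the other run the sexes were reversed, with Control_8 female and Null_61 male. With a term for embryo sex, and none for the run, the log2 change of Nqo1 was 0.68 with a standard error of 0.36. It was not called in that fit (adjusted p = 0.375 by limma). Control_8 was below its array median, and Control_1192 and Null_61 were not far above theirs. The RefSeq window of Nqo1 held no core of the response element, which says only that those letters are not in it.

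Glutathione synthesis was measured by 3 genes, and only Gss had groups that stood apart in its brightest probe set. Gclc (1424296_at), the catalytic subunit of the rate-limiting enzyme, read 398, 643 and 485 in the controls, against 397, 588 and 607 in the nulls. Control_8 and Null_61 were nearly equal and lowest, and the log2 change was 0.06 (interval -0.41 to 0.53, adjusted p = 0.901 by limma). Its other probe set, 1455959_s_at, ordered the arrays differently, with Control_8 and Null_61 at 401 and 416 above the other 4 at 279 to 350, and had a log2 change of 0.04. Both Gclc probe sets thus gave small differences between groups, although they opposed each other between the runs.

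Gclm encodes the modifier subunit that raises the efficiency of the enzyme, and neither of its 2 probe sets passed the test. The brightest, 1418627_at, read 1319, 2063 and 1859 in the controls, against 967, 1703 and 1672 in the nulls. Control_8 lay below 2 of the nulls, so the groups overlapped, and the log2 change was -0.29 (interval -0.83 to 0.25, adjusted p = 0.535 by limma). It was -0.025 without Null_61 and -0.086 with quantile normalization. Within the runs the difference was -0.44 between Null_61 and Control_8 and -0.21 among the other 4 arrays. With the run as a block the change of -0.29 had a standard error of 0.099 and was not called (adjusted p = 0.0947 by limma). Probe set 1439050_at read 388, 491 and 367 in the controls, against 291, 281 and 240 in the nulls. Here all nulls lay below all controls, as in 6 of the 21 probe sets and in 13.8% of all probe sets, with a log2 change of -0.56, a standard error of 0.14 and an adjusted p of 0.0521 by limma. The call was made with the run as a block (adjusted p = 0.0257), without Null_61 (0.0386), in the 4 other arrays alone (0.0458), with array weights (0.0257) and with only probe sets above the median level (0.0401). It was not made in the other alternatives fitted to single probe sets. Among them were a term for embryo sex (adjusted p = 0.132 by limma), quantile normalization (0.0981) and no intensity trend (0.067).

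Gss, the enzyme of the second step, read 263, 291 and 258 in the controls, against 227, 183 and 162 in the nulls in probe set 1448273_at. All 3 nulls were below all 3 controls, a pattern seen in 2 of the 10 genes and in 17.9% of all genes, and Null_61 was the nearest to the controls. The log2 change was -0.45 with a standard error of 0.14 (interval -0.77 to -0.14), and it did not pass the test after adjustment (adjusted p = 0.0967 by limma). It was called with the run as a block (adjusted p = 0.0439), in the 4 other arrays alone (0.0336), with array weights (0.0236) and without Null_61 (0.0224). Gss was not called in the other alternatives, among them a term for embryo sex (adjusted p = 0.201 by limma). Within the runs the difference was -0.19 between Null_61 and Control_8 and -0.58 among the other 4 arrays. With the run as a block 11.1% of all genes were called lower. The second Gss probe set, 1441931_x_at, of a type whose probes can also bind other transcripts, read 208 ± 25.9 and 173 ± 32.7 with overlapping groups and a log2 change of -0.23.

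**Figure D2:**
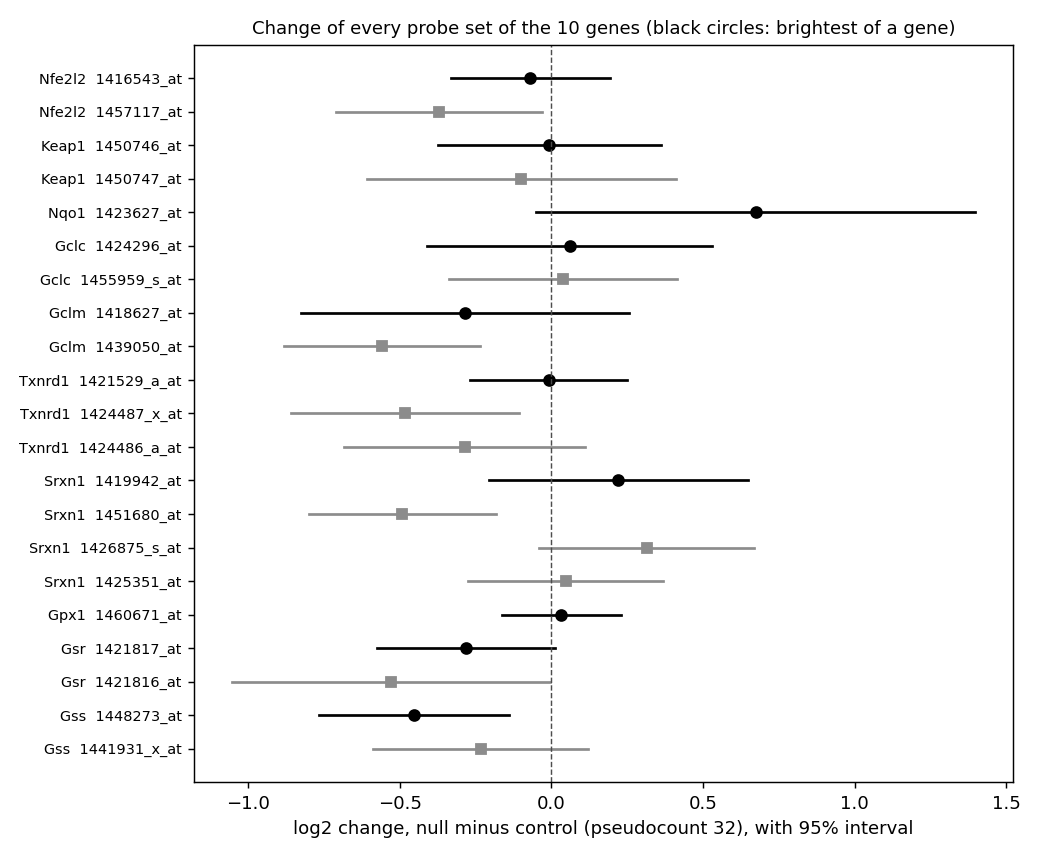
Log2 change (null minus control, pseudocount 32; horizontal axis) of each of the 21 probe sets with its 95% interval from limma; black circles are the brightest probe set of a gene and grey squares the others. The 7 probe sets on the higher side have intervals that include 0, and the largest of them is Nqo1 at 0.67; 6 of the 14 on the lower side have unadjusted intervals that lie below 0.

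Gsr, which reduces oxidised glutathione with NADPH, was lower in value in both of its probe sets. Probe set 1421817_at read 473, 459 and 372 in the controls, against 371, 323 and 358 in the nulls, so that the groups were separated only by the small gap between Control_1193 and Null_61. The log2 change was -0.28 (interval -0.58 to 0.01, adjusted p = 0.253 by limma). Probe set 1421816_at read 418, 356 and 331 in the controls, against 379, 204 and 185 in the nulls. Null_61 lay inside the control range and the other 2 nulls well below it, and the log2 change was -0.53 with an adjusted p of 0.232. Without Null_61 this change was -0.82 and was called (adjusted p = 0.00639 by limma), and with the run as a block it was -0.53 and called too (adjusted p = 0.0350). It was also called in the 4 arrays without Control_8 and Null_61 (-0.73, adjusted p = 0.0103) and with array weights (-0.66, adjusted p = 0.0357). It was not called in the other alternatives fitted to single probe sets, among them a term for embryo sex (adjusted p = 0.395 by limma).

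Gpx1, the selenium-containing glutathione peroxidase of the cytosol, had the narrowest interval of the 10 genes. Its single probe set, 1460671_at, read 7064, 7382 and 7436 in the controls, against 8005, 7614 and 6801 in the nulls. The controls lay inside the range of the nulls. The log2 change was 0.03 with a standard error of 0.09 and an interval from -0.16 to 0.23 (adjusted p = 0.869 by limma). This is in the upper part of the arrays' range, where signals can flatten and changes can be understated. Gpx1 is also strongly expressed by red cell precursors, and 8 of 12 erythroid markers were measured. None of these was called, and their summed intensity was 17625 to 18767 in controls and 20058 to 20564 in nulls. The part of these cells in the Gpx1 signal was not tested.

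Srxn1 and Txnrd1 serve the thiol systems beside glutathione. Srxn1, or sulfiredoxin, repairs over-oxidised peroxiredoxins and is a sensitive NRF2 target, and its 4 probe sets did not move together. The brightest, 1419942_at, read 409, 338 and 335 in the controls, against 569, 404 and 328 in the nulls, with overlapping groups and a log2 change of 0.22 (interval -0.21 to 0.65, adjusted p = 0.546 by limma). It was 0.021 without Null_61 and 0.022 when the probe sets were averaged. Probe set 1451680_at went the other way, at 187, 151 and 174 in the controls, against 131, 107 and 98.8 in the nulls. All nulls were below all controls there, and the log2 change of -0.49 missed the threshold (adjusted p = 0.0693). With the run as a block it passed (adjusted p = 0.0192), as it did without Null_61 (0.0260), with array weights (0.0253) and with only probe sets above the median level (0.0464). It did not pass in the other alternatives fitted to single probe sets. Among them were a term for embryo sex (adjusted p = 0.154 by limma), quantile normalization (0.102) and the 4 other arrays alone (0.0511). Leaving out any array other than Null_61 gave 0.12 to 0.209. The remaining 2, 1426875_s_at and 1425351_at, had log2 changes of 0.31 and 0.05, at levels near or below the array medians. No direction can therefore be given for Srxn1.

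Txnrd1 encodes the cytosolic thioredoxin reductase, another selenoprotein and NRF2 target. Its brightest probe set, 1421529_a_at, read 677, 655 and 560 in the controls, against 612, 615 and 647 in the nulls, and the nulls all lay inside the control range. The log2 change was -0.01 (interval -0.27 to 0.25, adjusted p = 0.973 by limma). The 2 dimmer probe sets were lower in value: 1424487_x_at read 182 ± 7.67 and 123 ± 32.9 without overlap (log2 change -0.48, adjusted p = 0.135), and 1424486_a_at read 156 ± 23.2 and 124 ± 33.4 with overlap (log2 change -0.29). Null_61 was the lowest null array in both.

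**Figure D3:**
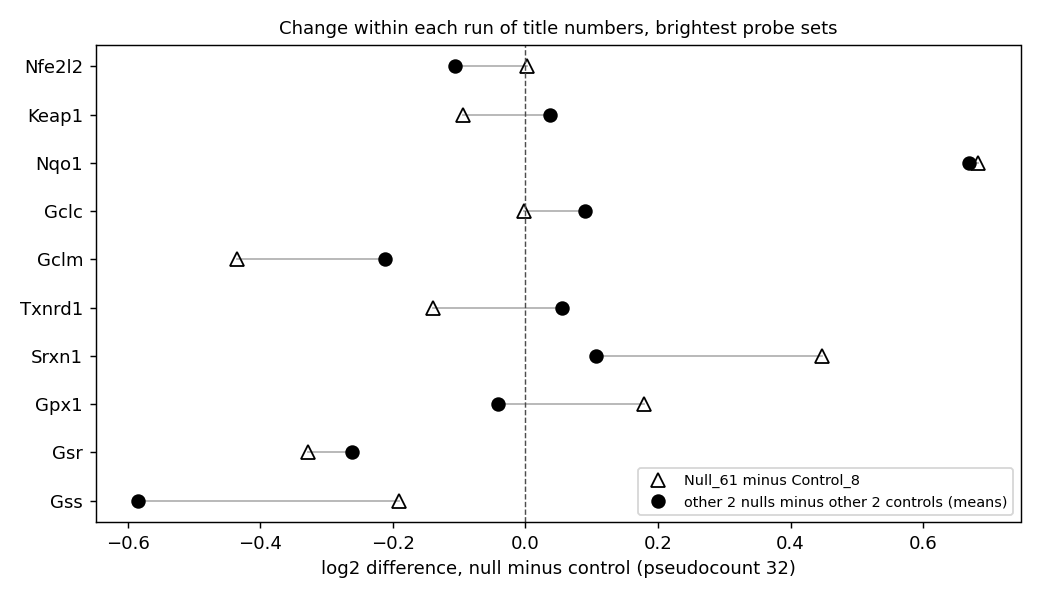
Log2 difference, null minus control (pseudocount 32), of the brightest probe set of each gene, taken separately between Null_61 and Control_8 (open triangles) and between the means of the other 2 nulls and the other 2 controls (filled circles). Nqo1 lies at 0.68 and 0.67; Gclm, Gsr and Gss lie below 0 in both runs.

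Genes that control NRF2 itself were examined next. Of 12 genes for its small MAF partners, BACH competitors, relatives and degradation factors, 1 was called higher and none lower, beside 1.56% and 7.85% of all genes, with a median log2 change of -0.13. The 1 call was Mafk, a small MAF protein that pairs with NRF2 on DNA. It read 386, 371 and 400 in the controls, against 512, 554 and 550 in the nulls, so the groups were well apart, and the log2 change was 0.45 (standard error 0.11, adjusted p = 0.0387 by limma). The call was lost without any 1 of 5 arrays (Control_8, Control_1192, Control_1193, Null_1191 and Null_1195, with adjusted p = 0.125, 0.158, 0.112, 0.128 and 0.0935), with a term for embryo sex (0.110) and with no intensity trend (0.0564). Cul3, the ligase scaffold, had a log2 change of -0.07 and was not called.

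Other textbook NRF2 targets also lacked a shared direction. Of 22 listed genes 19 were measured, 2 were called lower and none higher, and the median log2 change was -0.03. Cbr1, a carbonyl reductase, fell from 515 ± 49.2 to 168 ± 12.8 (log2 change -1.45, adjusted p = 0.000126), and Ephx1, the microsomal epoxide hydrolase, fell from 314 ± 59.8 to 139 ± 13.9 (log2 change -1.01, adjusted p = 0.00439). Both are also known as hepatocyte enzymes. With 2 calls among 19 genes, the list lies near the 7.85% of all genes called lower.

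Many of the enzymes that use glutathione fell. Of 33 measured genes 13 were called lower and 1 higher, beside the 7.85% and 1.56% of all genes, with a median log2 change of -0.42. By sign alone 27 were lower and 6 higher. The number called lower was 10 without Control_1192 and 16 with the run as a block, the lowest and highest of the alternatives. Those settings called 4.98% and 11.1% of all genes lower. The number was also 16 with the mean of a gene's probe sets, where 8.29% of all genes were called lower. Most of the falls were glutathione S-transferases, which attach glutathione to electrophiles. Gsta4 fell from 414 ± 11.9 to 147 ± 12.6 (log2 change -1.32, adjusted p = 0.000143). Gstz1, which also acts in tyrosine breakdown, fell from 919 ± 65.4 to 265 ± 52.0 (log2 change -1.69), and the microsomal Mgst1 fell from 5516 ± 123 to 1690 ± 420 (log2 change -1.72). When its probe sets were averaged the log2 change of Mgst1 was -0.76. The gene called higher was Gpx3, the secreted peroxidase, which rose from 185 ± 19.4 to 396 ± 27.2 (log2 change 0.98, adjusted p = 0.00140). The difference between this list and the 10 genes was not tested.

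**Figure D4:**
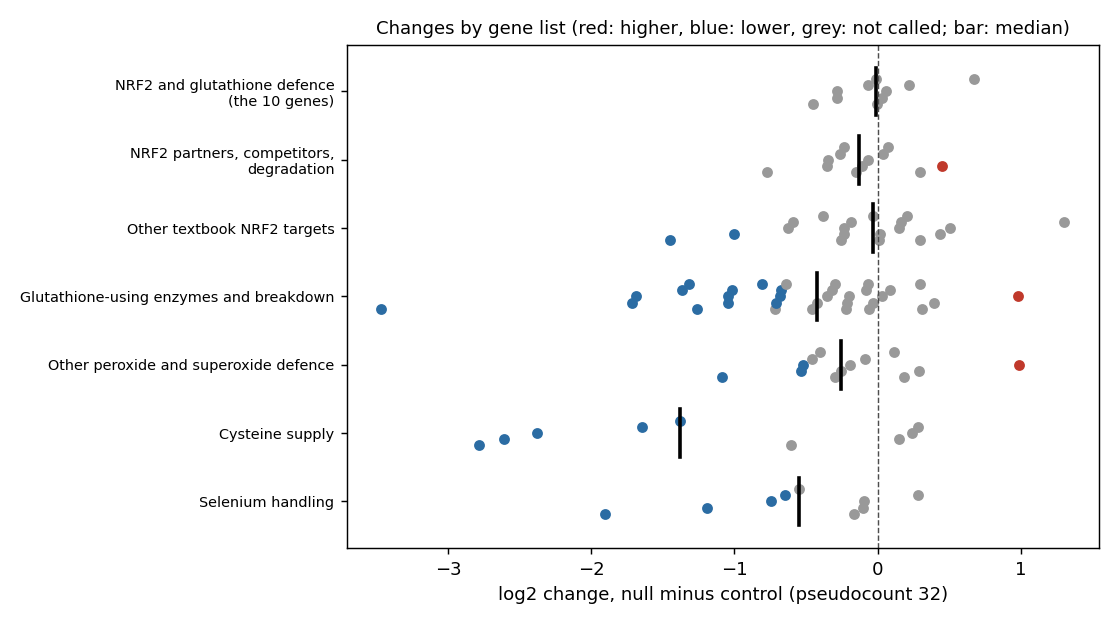
Log2 change (null minus control, pseudocount 32) of each measured gene, 1 point per gene, by list; red points were called higher, blue points lower and grey points were not called, and black bars are list medians. No point of the 10 genes is coloured, while 13 of 33 glutathione-using genes and 5 of 9 cysteine genes are blue.

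Genes that supply or divert cysteine, the limiting building block of glutathione, fell in part. Of 9 genes 5 were called lower and none higher, beside 7.85% and 1.56% of all genes, with a median log2 change of -1.38. Cth, the enzyme that releases cysteine from cystathionine, read 1801, 1257 and 1686 in the controls, against 200, 206 and 294 in the nulls. The highest null was far below the lowest control (log2 change -2.61, standard error 0.18, adjusted p = 3.77e-05 by limma). Cdo1, which instead removes cysteine by oxidation, fell from 1019 ± 64.8 to 121 ± 19.1 (log2 change -2.78), and Csad, the next step towards taurine, fell from 1139 ± 149 to 342 ± 46.7 (log2 change -1.64). The falls thus lay on both the supplying and the consuming side.

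Selenium handling was examined because GPX1 and TXNRD1 need selenocysteine. Of 9 measured genes 4 were called lower and none higher, beside 7.85% and 1.56% of all genes, with a median log2 change of -0.55. Sephs2, which makes the selenium donor for selenocysteine, read 2364, 3035 and 2796 in the controls, against 579, 814 and 739 in the nulls. No null came near a control (log2 change -1.90, adjusted p = 8.36e-05 by limma). Selenop, the plasma selenium carrier made by hepatocytes, fell from 8360 ± 514 to 5008 ± 733 (log2 change -0.74, adjusted p = 0.00550), and Selenbp1, a selenium-binding protein, fell from 1554 ± 325 to 653 ± 57.3 (log2 change -1.19). In the same arrays the brightest probe sets of Gpx1 and Txnrd1 had the log2 changes of 0.03 and -0.01 given above.

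Of 13 measured genes of other peroxide and superoxide defence, 3 were called lower and 1 higher, beside 7.85% and 1.56% of all genes, with a median log2 change of -0.26. The count called lower varied with the setting: it was 1, Msra alone, with quantile normalization and without Control_8, Control_1192 or Null_1191, and 5 with the run as a block or with array weights. In the same order, 6.57%, 5.89%, 4.98%, 5.46%, 11.1% and 10.4% of all genes were called lower. Msra, which repairs oxidised methionine, fell from 348 ± 5.03 to 147 ± 14.2 (log2 change -1.09, adjusted p = 0.000518). Cat, or catalase, the peroxisomal enzyme that breaks down hydrogen peroxide, fell from 3113 ± 140 to 2165 ± 194 (log2 change -0.52, adjusted p = 0.0153), a call lost with quantile normalization (0.0896) and without Control_8, Control_1192, Control_1193 or Null_1191 (0.0842, 0.0646, 0.0641 and 0.0728). Sod2, the mitochondrial superoxide dismutase, had a log2 change of -0.54 (adjusted p = 0.0228), a call lost in those same 4 alternatives that left Msra alone (0.106, 0.0956, 0.117 and 0.0779), when its probe sets were averaged (0.210), in the 4 other arrays alone (0.0564) and with a term for embryo sex (0.0580). Txnrd2, the mitochondrial relative of Txnrd1, rose from 468 ± 86.1 to 950 ± 20.9 (log2 change 0.99, adjusted p = 0.00258), but not with the mean of its probe sets (log2 change 0.19, adjusted p = 0.357).

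Markers of other liver cells also differed between the groups, and their part in the values of the 10 genes was not tested. Of 10 macrophage markers 3 were called higher, with summed intensities of 4350 to 5147 in controls and 6214 to 10080 in nulls, the highest in Null_61. Of 5 measured megakaryocyte markers 3 were called lower (sums of 4996 to 7010 and 3534 to 4043), and so were 3 of 7 endothelial markers (1793 to 2054 and 1236 to 1452). No call was made among 8 neutrophil, 7 mesenchymal and 4 biliary markers, with sums that overlapped between groups. None of the markers measured read 0 or below on any array. Of 6 measured hepatocyte markers 4 were called lower. Beside these marker counts stand 1.56% of all genes called higher and 7.85% called lower.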

How the data were processed

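Total RNA of 6 fetal livers, 1 array each, was labelled with biotin and hybridised to Affymetrix mouse arrays, per the labels' protocols. The deposited table holds 1 linear intensity per probe set and array. No source used here gives the authors' summarisation, background step or scaling; between 0.909% and 1.34% of an array's values lie below 0. Negative values were replaced by 0 and log2(value + 32) was used without further scaling, as array medians differed by at most 0.0877. Of 45101 probe sets 64 controls were left out. The platform annotation gave 1 symbol to 34945, several to 932 and none to 9160, and genes were named only from the first. limma 3.58.1 in R 4.3.3 (lmFit, eBayes with intensity trend, no covariate) compared 3 nulls with 3 controls, two-sided, with Benjamini-Hochberg adjustment over 45037 probe sets and a threshold of 0.05. Intervals are 95% and unadjusted. Each array is 1 liver, so a p value reflects the spread between livers together with that of the arrays. Whether livers shared litters is unknown, and the number of arrays limits the precision. No detection calls were used.

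Every member probe set is described; of other lists, those named are the called ones ranked 1 to 3 by adjusted p and the best-ranked of the opposite direction (Cul3 and Sod2 were added after their values were seen). Members and lists were chosen with earlier results of these data known. Some list genes have no singly named probe set and were not analysed. Alternatives were quantile normalization, equal array medians, pseudocounts of 1 and 100, a filter on dim probe sets, no trend, array weights, the mean of a gene's probe sets, the run of title numbers as a block, 4 arrays alone, embryo sex (read from Xist and Y-linked probe sets) and each array left out. The fit was tested on simulated data in which 200 of 45037 probe sets were changed. It called 0% of log2 changes of 0.5, 48% of those of 1, 52% of those of -1 and 92% of those of 2. There were 5 false calls. Far more probe sets were called in the data (1.46% higher and 5.55% lower), so the adjustment was less strict there. The simulated shares therefore do not carry over to the data, where Mafk was called at a log2 change of 0.45. Sequences and coordinates are RefSeq's, of build GRCm38.p6; the arrays' files name no build.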

Additional observations from a re-analysis of the deposited data

How the results depend on the processing

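The count of 0 of the 10 genes called higher became 1 (Nqo1) with the run of title numbers as a block and with Control_8 and Null_61 both left out. Those settings called 4.11% and 2.33% of all genes higher. Likewise, the count of 0 called lower became 1 (Gss) with array weights, with that block and in the 4 remaining arrays. In the same order, 10.4%, 11.1% and 8.6% of all genes were called lower there. Group and embryo sex cannot be told apart in those 4 arrays. With 1 array left out at a time the counts ranged from 0 to 0 for higher and from 0 to 1 for lower, the 1 being Gss without Null_61. Without that array 9.28% of all genes were called lower. The other alternatives, among them a term for embryo sex, left both counts at 0. Genes with changes near 0 changed sign. With quantile normalization Nfe2l2 was at 0.11, Keap1 at 0.11 and Txnrd1 at 0.19, and in those 4 arrays Keap1 was at 0.037, Txnrd1 at 0.055 and Gpx1 at -0.042. With 1 array left out at a time Keap1 ranged from -0.17 to 0.11, Txnrd1 from -0.089 to 0.041, Gclc from -0.094 to 0.24 and Gpx1 from -0.019 to 0.098. Over the 17 alternatives Nqo1 ranged from 0.37 to 0.97, Gss from -0.58 to -0.34, Gsr from -0.41 to -0.14, Gclm from -0.47 to -0.025 and Srxn1 from 0.021 to 0.39, the last 2 nearest 0 without Null_61. The causes of these shifts were not tested. Probe sets near the array medians are limited by their signal over background. No paired analysis was possible because the groups share no replicate numbers.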

Other observations

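Null_61 stood apart from the other nulls in Hmox1 and Chac2, which, like the other genes here, were chosen after their values were seen. Hmox1, the inducible heme oxygenase and an NRF2 target, read 1316 in Null_61, 720 in Null_1191 and 533 in Null_1195, against 555 ± 62.9 in the controls, and was not called (adjusted p = 0.337 by limma). Null_61 was also the array with the highest macrophage marker sum, and a link between that sum and Hmox1 was not tested. Chac2, which breaks glutathione down, read 1521 in Null_61, 727 and 566 in the other nulls, and 996 in Control_8 against 575 and 465 in the other controls. Sqstm1, whose protein p62 can draw KEAP1 into autophagy, read 1138, 1062 and 1030 in the controls, against 898, 611 and 424 in the nulls (log2 change -0.77, adjusted p = 0.0849). All nulls lay below all controls, as in 17.9% of all genes. Sqstm1 was called lower with array weights, with the run as a block, in the 4 arrays without Control_8 and Null_61, and without Null_61. It was not called lower in the other alternatives, among them quantile normalization and a term for embryo sex. In the 4 arrays group and embryo sex cannot be told apart. Gpx2, the gastrointestinal glutathione peroxidase, ranged from 45.4 to 371 in the controls and from 290 to 643 in the nulls.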
